A study of Homo sapiens with 8 samples.

Results

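The 7 loci described here are those of the TGF-beta ligand genes TGFB1, TGFB2 and TGFB3, the receptor genes TGFBR1 and TGFBR2, and SMAD3 and SMAD7. A peak belonged to a locus when its centre lay within 100 kb of the gene's transcription start site (TSS) in the hg19 build. Peaks nearer to the AXL start would have been left out of TGFB1. By this rule 87 of the 51828 peaks in 5 deposited lists were members: 61 of 38186 TEAD1 peaks, 25 of 12188 TEAD4 peaks, 1 of 847 HA-YAP5SA peaks, and none of the 454 YAP or 153 TAZ peaks.

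The peaks came from ChIP-seq, the sequencing of DNA fragments that an antibody pulls down with a bound protein, in HuCCT1, an established line of human bile duct cancer cells. Peak lists hold no expression values, so the line's bile duct identity could not be checked with markers. The TEAD1, TEAD4, YAP and TAZ libraries used an antibody against each protein, and HA-YAP5SA was precipitated through its HA tag. YAP5SA is a form of YAP in which alanine stands in place of the serines that LATS kinases phosphorylate. The labels do not say whether the other 4 libraries came from cells that carried it. The input, IgG and GFP libraries of the same line were not analysed here. Each antibody had 1 library, so no value has a replicate and no test between antibodies was possible. Peaks of 1 library are not replicates, and the depth of each library is unknown. Intervals below are exact 95% intervals, Poisson for counts and Clopper-Pearson for shares, and cover counting error only. Both kinds take peaks as independent, so clustering of peaks along a chromosome is not covered.

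TGF-beta ligands are secreted in latent form and, once released, bind the receptor TGFBR2, which recruits and phosphorylates TGFBR1. TGFBR1 then phosphorylates SMAD2 and SMAD3, which enter the nucleus with SMAD4 and act on target genes together with other DNA-binding factors. SMAD7 is an inhibitory SMAD that blocks the receptors and is itself a target of the pathway. In the liver the pathway is known for restraining the growth of biliary epithelium and for driving fibrosis. TEAD factors bind DNA directly, and YAP and TAZ are coactivators that reach chromatin mainly through them.

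TGFB2 was the single gene of the 7 with a peak at the TSS named in the rule. The rule names 1 TSS per gene, so other starts of the same gene were not checked for peaks. A TEAD1 peak (chr1:218518241-218518888, hg19) and a TEAD4 peak (chr1:218518213-218518721) covered its TSS. The TEAD1 peak ran from 435 bp before to 212 bp after the TSS, and the TEAD4 peak from 463 bp before to 45 bp after it. The promoter is shown because its TSS is the only one of the 7 in the rule that these peaks cover. It is taken from RefSeq, runs from 250 bases before to 50 after the annotated start on the plus strand (GRCh38.p14, chr1:218345086-218345385), and has in capitals the 1 match to the TEAD core motif GGAATG, read here on the minus strand.
TGFB2 promoter: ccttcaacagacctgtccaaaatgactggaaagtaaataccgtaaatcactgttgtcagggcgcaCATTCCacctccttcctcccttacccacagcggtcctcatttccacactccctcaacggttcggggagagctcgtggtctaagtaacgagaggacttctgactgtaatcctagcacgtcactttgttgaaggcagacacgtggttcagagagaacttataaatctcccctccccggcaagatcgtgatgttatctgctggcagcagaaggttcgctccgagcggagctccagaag
The match spans positions -185 to -180 from the RefSeq start. If that start and the hg19 TSS mark the same base, which could not be checked across builds, the match lay 26.5 bp from the centre of the TEAD4 peak and 71.0 bp from the centre of the TEAD1 peak. Of 35116 RefSeq promoters of this length, 14% hold GGAATG on either strand. The AP-1 motif TGANTCA, found in 7.71% of promoters on either strand, was not in the TGFB2 window. RefSeq lists several starts for most of these genes, and at the other 6 loci GGAATG was found at 1 start only, 1 of the 8 listed for TGFBR1. TGANTCA was found at 1 of the 2 starts of TGFBR2 and 1 of the 5 of SMAD3. The looser GGAATN, in 36.3% of promoters, was at 3 of 8 starts of TGFBR1, 2 of 3 of SMAD7 and 1 of 2 of TGFB3. In the TGFB2 window GGAATN matched only the stretch in capitals, and no AP-1 match overlapped it. A match is a description of the letters, not a bound site.

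TEAD1 peaks were spread unevenly over the 7 loci. SMAD3 held 23 TEAD1 peaks (interval 14.6 to 34.5), TGFBR2 held 10 (4.80 to 18.4), SMAD7 held 9 (4.12 to 17.1) and TGFB2 held 8 (3.45 to 15.8). TGFB1 held 6 (2.20 to 13.1), TGFBR1 held 4 (1.09 to 10.2) and TGFB3 held 1 (0.0253 to 5.57). Within 100 kb, the interval of SMAD3 does not meet those of TGFB1, TGFBR1 and TGFB3. Within 50 kb SMAD3 held 13 TEAD1 peaks (6.92 to 22.2) and TGFB1 held 4 (1.09 to 10.2), so that their intervals met. The 100 kb interval of SMAD3 overlaps those of TGFBR2, SMAD7 and TGFB2, although its count of 23 lies above each of those intervals. Overlap of intervals does not show that counts are alike, and differences between loci were not tested. TGFBR2, SMAD7 and TGFB2 are neighbours in this order, and their counts lie within each other's intervals. The 2 SMAD loci together held 32 TEAD1 peaks, 23 of them at SMAD3, the 3 ligand loci 15 and the 2 receptor loci 14.

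The number at SMAD3 was high for the list as a whole. With the chromosomes cut into 15037 tiles of 200 kb, the size of a locus, a tile held a median of 2 TEAD1 peaks, and 31.5% of tiles held none. At least 23 peaks, the number at SMAD3, were found in 5 tiles (0.0333%), none of them at SMAD3. The fixed tiles split the SMAD3 locus into tiles with 18 and 10 peaks, of which 15 and 8 were SMAD3 members. At least 18 peaks were held by 0.173% of tiles. At least 10 peaks, as at TGFBR2, were found in 3.26% of tiles, at least 9, as at SMAD7, in 4.82%, and at least 8, as at TGFB2, in 7.1%. For TGFB1 and TGFBR1 these shares were 14.3% and 27.8%. The AXL rule leaves TGFB1 a window of 167 kb, which is smaller than a tile. TGFB3 lay below the median tile. A locus is centred on a gene, whereas tiles include gene-poor stretches and assembly gaps, and the part of these in the ranking was not tested.

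**Figure D1:**
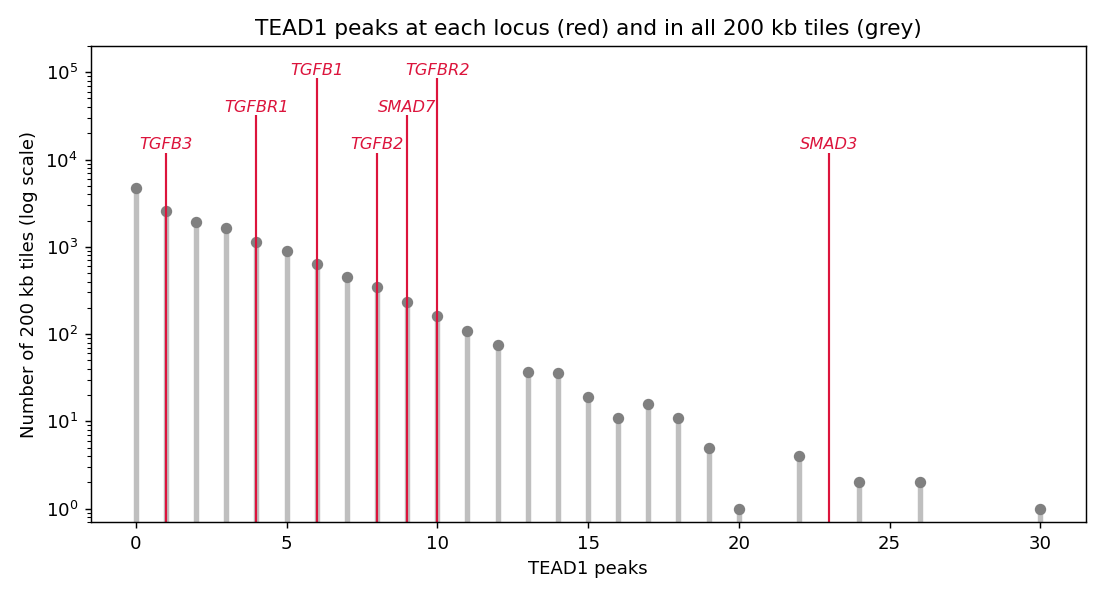
Number of 200 kb tiles (vertical axis, log scale) that hold each number of TEAD1 peaks (horizontal axis, grey), with the count at each of the 7 loci in red. SMAD3, with 23 peaks, lies beyond all but 5 of the 15037 tiles, while TGFB3, with 1, lies below the median of 2.

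Peaks lay on both sides of the start sites, and most lay more than 10 kb from them. Of the 61 TEAD1 peaks, 30 lay upstream and 31 downstream along the gene's strand. Within 50 kb of a TSS lay 37 of them, within 10 kb 12 and within 1 kb 1. The 25 TEAD4 peaks divided into 13 upstream and 12 downstream, with 13 within 50 kb and 3 within 10 kb. Most of a 100 kb window lies beyond 10 kb, so these counts do not show that peaks avoid the starts. The counts were not set against an even spread. TGFBR1 was the exception in side, with all 4 of its TEAD1 peaks upstream. TGFB3 was the exception in distance, with its single peak 95.7 kb downstream.

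**Figure D2:**
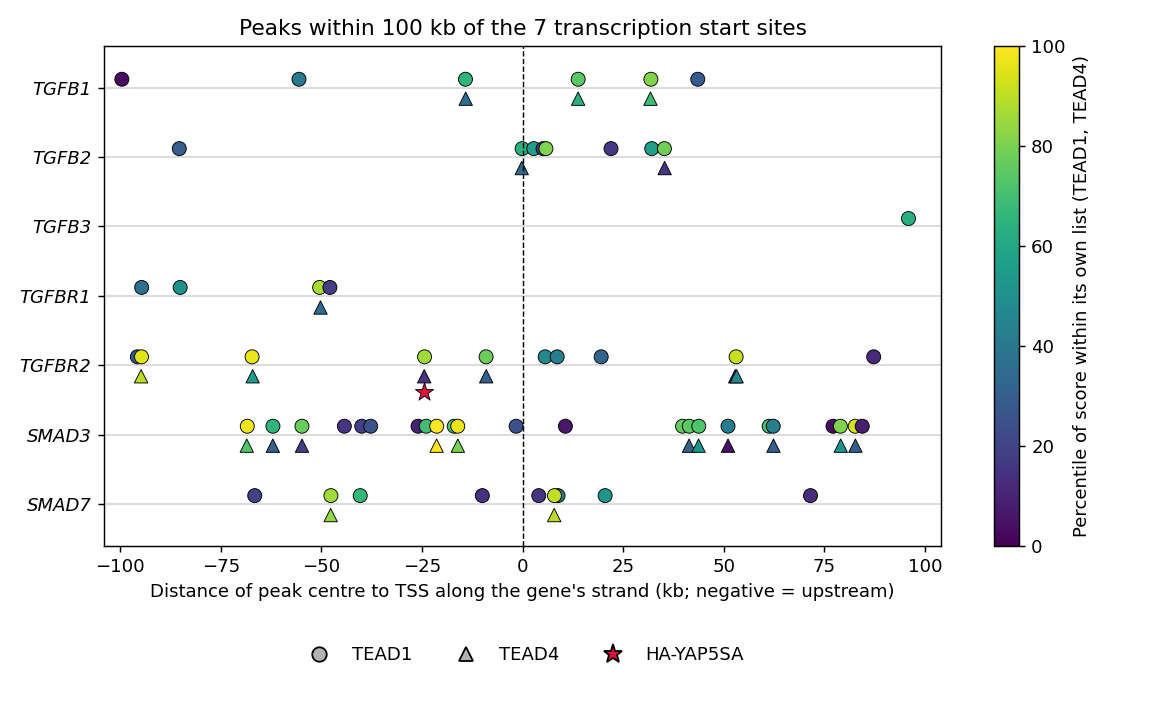
Peaks at the 7 loci by the distance of their centre from the TSS (kb, negative upstream along the gene's strand), with TEAD1 as circles, TEAD4 as triangles and HA-YAP5SA as a star. Colour gives the percentile of the authors' score within the TEAD1 or TEAD4 list. The SMAD3 row is the fullest, with 12 TEAD1 peaks upstream and 11 downstream, and the TGFB2 row is the one with peaks at the TSS itself.

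The ligand loci are described first. TGFB1 (TSS chr19:41859831, minus strand) encodes the most widely expressed TGF-beta ligand. Its TEAD1 peak with the highest score, the authors' own value per peak, lay 31.9 kb downstream (chr19:41827488-41828415, score 420). That score stood at percentile 81.4 of the TEAD1 list. It overlapped the highest-scoring TEAD4 peak of the locus (chr19:41827859-41828258, score 233), at percentile 68.4 of the TEAD4 list. The TEAD1 peak nearest the TSS lay 13.8 kb downstream (chr19:41845700-41846347, score 331) and also carried TEAD4. Another pair lay 14.2 kb upstream, so that 3 of the 6 TEAD1 peaks of TGFB1 carried TEAD4. By the order of named protein-coding genes in RefSeq (GRCh38.p14), used for all 7 loci, CCDC97 is the next gene downstream of TGFB1 and B9D2 the next upstream. No peak within 100 kb of TGFB1 lay nearer to AXL, whose TSS is 135 kb away. At the AXL locus itself, 5 TEAD1 peaks lay within 100 kb of the start, of which 1 was also within 100 kb of TGFB1 and was counted there.

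TGFB2 (TSS chr1:218518676, plus strand) encodes a ligand that needs the co-receptor betaglycan for high-affinity binding to TGFBR2. The TEAD1 peak at its TSS, with its centre 0.112 kb before the start, had a score of 244 (percentile 64), and the TEAD4 peak there had a score of 124 (percentile 33.5), the higher of the 2 TEAD4 peaks of the locus. Another 3 TEAD1 peaks lay 2.78, 5.09 and 5.8 kb downstream, and the last of these was the highest of the locus (chr1:218524077-218524873, score 408, percentile 80.7). It carried no TEAD4 peak. TEAD4 appeared again 35.3 kb downstream, on a TEAD1 peak at percentile 78.2. All but 2 of the 8 TEAD1 peaks of TGFB2 lay downstream of the TSS. RRP15 is the next protein-coding gene upstream and LYPLAL1 the next downstream.

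TGFB3 (TSS chr14:76448092, minus strand), the other ligand gene, had no TEAD4 peak. Its 1 TEAD1 peak (chr14:76352126-76352728, score 239, percentile 63.1) lay near the edge of the locus. TTLL5 is the next protein-coding gene on that side. The nearest TEAD4 peak to the TGFB3 start lay 150 kb away, on the same side. None of the 15 TEAD1 peaks of the ligand loci reached the highest decile of TEAD1 scores, which holds 10% of the whole list by definition. With so few peaks this count does not show that ligand loci score low, and a difference was not tested.

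The receptor loci are described next. Their TEAD1 counts, 4 at TGFBR1 and 10 at TGFBR2, have overlapping intervals (1.09 to 10.2 and 4.80 to 18.4). TGFBR1 (TSS chr9:101867412, plus strand) encodes the type I receptor kinase. Its 4 TEAD1 peaks lay 47.9 to 94.6 kb upstream, the side on which COL15A1, a collagen gene, is the next protein-coding gene. The highest (chr9:101816676-101817314, score 542, percentile 87.1) lay 50.4 kb from the TSS and was the only one with TEAD4 (chr9:101816917-101817199, score 123, percentile 33.3). The TEAD1 peak nearest the TSS (chr9:101819329-101819754, score 102) stood at percentile 17.9.

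TGFBR2 (TSS chr3:30647994, plus strand), the gene of the type II receptor that binds the ligand, held 10 TEAD1 and 6 TEAD4 peaks, 5 of the TEAD1 peaks on each side of the TSS. The highest TEAD1 peak (chr3:30580273-30581311, score 1044, percentile 96.6) lay 67.2 kb upstream. The next (chr3:30552943-30553694, score 950, percentile 95.7) lay 94.7 kb upstream and carried the highest TEAD4 peak of the locus (chr3:30552976-30553464, score 447, percentile 89.7). Another in the highest decile (chr3:30700606-30701482, score 692, percentile 91.6) lay 53 kb downstream and was overlapped by 2 separate TEAD4 peaks. The TEAD1 peak nearest the TSS lay 5.61 kb downstream (chr3:30653360-30653857, score 166, percentile 46.9) and had no TEAD4. The downstream side held 1 TEAD1 peak with TEAD4 and the upstream side 4. Upstream of TGFBR2 the next protein-coding gene is RBMS3, and downstream it is GADL1.

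The single HA-YAP5SA peak of the 7 loci lay at TGFBR2, 24.4 kb upstream of the TSS (chr3:30623461-30623640, score 98.2). It stood at percentile 33.2 of the HA-YAP5SA list, in which the lowest score was 80.08. It lay on a TEAD1 peak (chr3:30623352-30623929, score 510) and a TEAD4 peak (chr3:30623467-30623655, score 95.8), with centres 90 and 10.5 bp away. In the whole HA-YAP5SA list, 95.2% of peaks overlapped TEAD1 and 92.4% TEAD4, so this pairing is the usual one. It had no YAP peak on it, where 6.49% of the whole HA-YAP5SA list had one. The TEAD1 peak stood at percentile 85.9 of its list, against a median of 97.6 for all 787 TEAD1 peaks with HA-YAP5SA (interquartile range 93.7 to 99.2). The TEAD4 peak stood at percentile 14.9 of its list, against a median of 93 for all 765 TEAD4 peaks with HA-YAP5SA (81.8 to 97.9). Of the 787 TEAD1 peaks with HA-YAP5SA, 85 (10.8%) stood as low or lower, and of the 765 TEAD4 peaks, 11 (1.44%) did.

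SMAD3 (TSS chr15:67358195, plus strand) encodes the receptor-regulated SMAD that carries the signal to chromatin. Its 23 TEAD1 peaks spanned 153 kb with a median gap of 4.33 kb between neighbouring centres, and 11 of them carried a TEAD4 peak. At least 11 TEAD4 peaks, the number at SMAD3, were found in 0.0734% of 14978 tiles. The highest TEAD1 peak of all 7 loci (chr15:67336579-67337149, score 1860, percentile 99.5) lay 21.3 kb upstream of the SMAD3 TSS. It ranked 175th in the TEAD1 list. The TEAD4 peak on it (chr15:67336533-67337132, score 1165, percentile 99.2) ranked 93rd in the TEAD4 list. Another 3 TEAD1 peaks of SMAD3 were in the highest decile. They lay 68.4 kb upstream (score 1203), 16.1 kb upstream (score 1064) and 82.6 kb downstream (score 768), and all 3 carried TEAD4. The peak nearest the SMAD3 TSS (chr15:67356228-67356961, score 113) lay 1.6 kb upstream, stood at percentile 24.9 and had no TEAD4. By gene order SMAD6, another inhibitory SMAD, is the next protein-coding gene upstream of SMAD3 and AAGAB the next downstream.

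SMAD7 (TSS chr18:46477081, minus strand), the inhibitory SMAD, had 9 TEAD1 peaks and 2 TEAD4 peaks. The highest TEAD1 peak (chr18:46468759-46469572, score 659, percentile 90.8) lay 7.92 kb downstream of the TSS and carried the highest TEAD4 peak of the locus (chr18:46468987-46469456, score 443, percentile 89.5). The second pair lay 47.6 kb upstream, at percentile 85.9 in the TEAD1 list and 83.3 in the TEAD4 list. The TEAD1 peak nearest the TSS (chr18:46472869-46473256, score 98.3, percentile 15.3) lay 4.02 kb downstream and had no TEAD4. CTIF is the next protein-coding gene downstream of SMAD7 and DYM the next upstream.

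TEAD4 was present at 24 of the 61 TEAD1 peaks of the 7 loci (39.3%, interval 27.1 to 52.7%), against 30.5% in the rest of the TEAD1 list (30.1 to 31.0%). In the whole list 30.6% of TEAD1 peaks carried TEAD4. That value lies within the interval of the 7 loci, so a difference was not detectable with 61 peaks. All 25 TEAD4 peaks overlapped TEAD1 (interval 86.3 to 100%), against 97.1% in the rest of the TEAD4 list and 97.1% in the whole list. By gene, TEAD4 was at 11 of 23 TEAD1 peaks of SMAD3, 5 of 10 of TGFBR2, 3 of 6 of TGFB1, 2 of 9 of SMAD7, 2 of 8 of TGFB2, 1 of 4 of TGFBR1 and 0 of 1 of TGFB3.

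TEAD4 lay on the higher-scoring TEAD1 peaks at these loci. The 24 TEAD1 peaks with TEAD4 had a median percentile of 81.1 (interquartile range 74 to 92), and the 37 without had a median of 28.5 (15.3 to 52). In the rest of the TEAD1 list these medians were 83.2 and 36.2, so the loci followed the list. All 8 TEAD1 peaks in the highest decile carried TEAD4, where 97% of that decile did in the whole list. Above the median score 22 of 33 TEAD1 peaks of the loci carried TEAD4 (66.7%, interval 48.2 to 82.0%), where 55.1% did in the whole list. Below the median score 2 of 28 did (7.14%, interval 0.877 to 23.5%), where 5.98% did in the whole list. Both were at SMAD3.

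**Figure D3:**
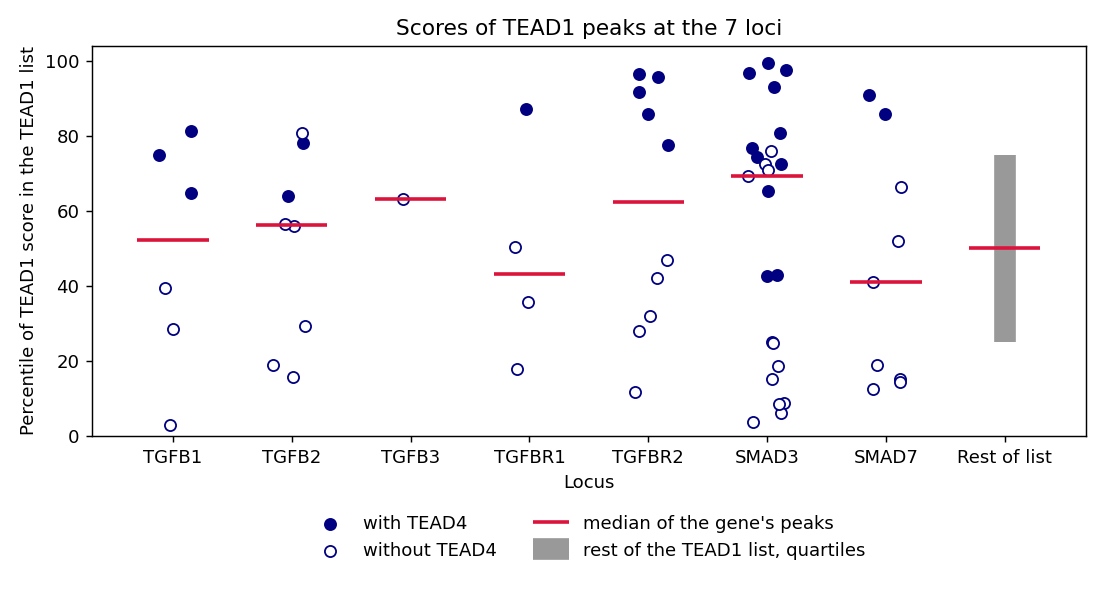
Percentile of each TEAD1 peak's score in the TEAD1 list (vertical axis) at the 7 loci, filled where a TEAD4 peak overlaps and open where none does. Red lines are medians, and the grey bar spans the quartiles of the rest of the list. Filled points sit above most open ones, and the 8 peaks above percentile 90 are at TGFBR2, SMAD3 and SMAD7.

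As a set, the TEAD1 peaks of the 7 loci had scores much like those of the list. Their median percentile was 56.1 (interquartile range 24.9 to 77.6), against 50 in the rest of the list (25 to 75). The gene medians ran from 41 at SMAD7 to 69.2 at SMAD3. The highest decile held 8 of the 61 peaks (13.1%, interval 5.84 to 24.2%), where it holds 10% of the whole list by definition. The median width was 599 bp in the 7 loci and 552 bp in the rest of the TEAD1 list. The TEAD4 peaks of the loci had a median percentile of 35.3 (29.3 to 68.4), against 50 in the rest of the TEAD4 list (25 to 75), and a median width of 333 bp against 352 bp. Of the 25 TEAD4 peaks, 14 (56%, interval 34.9 to 75.6%) were below the list's median score, where 50% of the list is by definition, so a difference was not detectable with 25 peaks.

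Each TEAD4 peak of the loci was paired with the TEAD1 peak it overlapped, which gave 25 pairs at 24 TEAD1 peaks. The centres lay a median of 56 bp apart (range 1.5 to 221 bp), against 44 bp in the other 11816 pairs of the lists. In 23 pairs the TEAD4 peak lay wholly inside the TEAD1 peak, and the 2 exceptions were the pair at the TGFB2 start and the top pair at SMAD3. How often this held in the other pairs was not counted. TEAD4 peaks were narrower in the whole lists too, with a median width of 352 bp against 552 bp for TEAD1. The TEAD1 percentile was the higher one in all 25 pairs, by a median of 30.5 points, and it was the higher one in 93.3% of the other pairs, by a median of 23.9 points. The lists differ in length, so a gap in percentile between them cannot be read as a difference in binding. The gap was smallest at the top SMAD3 pair, at 0.3 points, and was 1.28 and 2.59 points at the SMAD7 pairs. It was largest at 1 of the TEAD4 peaks 53 kb downstream of TGFBR2, at 83.1 points, followed by the HA-YAP5SA site of TGFBR2, at 71 points.

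**Figure D4:**
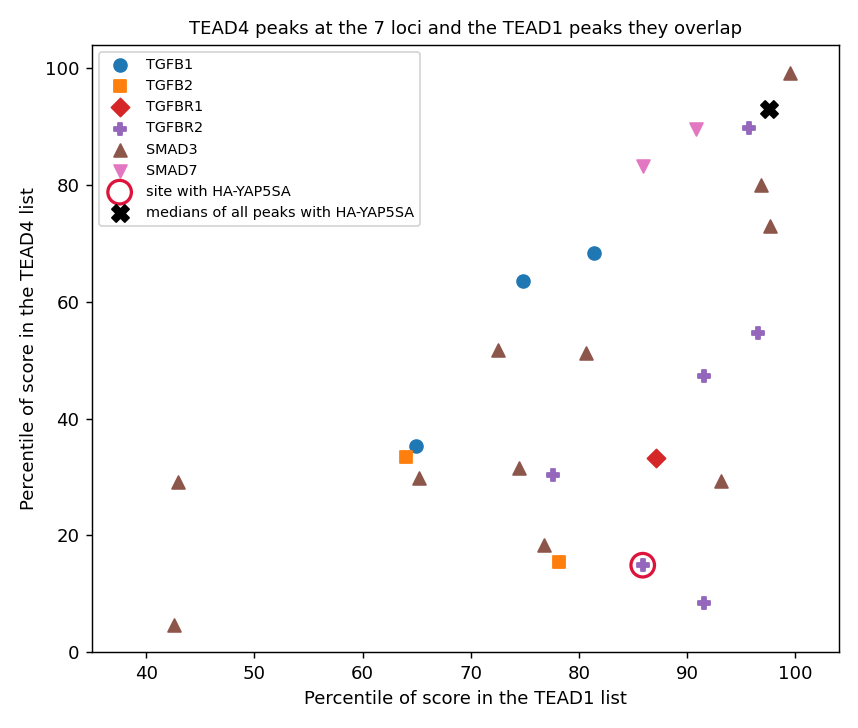
Percentile of the score in the TEAD1 list (horizontal axis) and in the TEAD4 list (vertical axis) for the 25 overlapping pairs, with genes by colour and shape. The pair at the HA-YAP5SA site of TGFBR2 is ringed at 85.9 and 14.9, and the black cross marks the medians of all TEAD1 and TEAD4 peaks with HA-YAP5SA, 97.6 and 93.

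An HA-YAP5SA peak lay on 1 of the 61 TEAD1 peaks (1.64%, interval 0.0415 to 8.8%), where 2.06% carried one in the whole list and also in the rest of the list. The same HA-YAP5SA peak lay on 1 of the 25 TEAD4 peaks (4%, 0.101 to 20.4%), where 6.28% carried one in the whole TEAD4 list. Below the highest decile of TEAD1 scores, 1 of 53 TEAD1 peaks of the loci carried HA-YAP5SA (1.89%, 0.0478 to 10.1%), where 0.37% did in the whole list. Above the median score it was 1 of 33 (3.03%, 0.0767 to 15.8%), where 4.07% did, and below the median 0 of 28 (upper end of the interval 12.3%), where 0.0471% did. With 1 HA-YAP5SA peak, none of these differences was detectable. None of the 8 TEAD1 peaks in the highest decile carried it, and with 8 peaks the upper end of the interval is 36.9%, above the 17.3% of that decile in the whole list. The top SMAD3 site had no HA-YAP5SA peak on it, whereas 132 of the 175 TEAD1 peaks ranked at or above it (75.4%) and 77 of the 93 TEAD4 peaks ranked at or above its TEAD4 peak (82.8%) had one. Of the 175 TEAD1 peaks, 43, the SMAD3 site among them, had none.

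Outside the loci, the nearest HA-YAP5SA peak lay 270 kb from the TGFB3 start, 329 kb from TGFB2 and 462 kb from SMAD7. It lay 882 kb from TGFBR1, 2.71 Mb from TGFB1 and 3.73 Mb from SMAD3. All 6 of these HA-YAP5SA peaks overlapped both TEAD1 and TEAD4. Distances of this size cross many other genes, and no peak was assigned to a gene by contact or expression.

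YAP and TAZ peaks were not found at any of the 7 loci. A count of 0 allows up to 3 peaks, taken as a one-sided limit, which is 0.661% of the YAP list and 1.96% of the TAZ list. The upper end of the two-sided Poisson interval used for the other counts is 3.69 peaks. YAP was at 0.21% of all TEAD1 peaks and 0.624% of all TEAD4 peaks, so none among 61 and 25 is within counting error. TAZ was at 0 of all 38186 TEAD1 peaks (0%), so its absence from the 61 followed from the lists and says nothing particular to these loci. The nearest YAP peak lay 8.08 to 25.5 Mb from the TSS of the 6 genes whose chromosome held one, and chromosome 15, with SMAD3, held none. The nearest TAZ peak lay 0.774 Mb downstream of SMAD3 and 11.1 to 97 Mb from the other 4 genes whose chromosome held one. The lists do not show whether YAP or TAZ lies at these loci below the level at which peaks were called.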

How the data were processed

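Chromatin was cross-linked with formaldehyde, sonicated and precipitated, per the labels' protocols. The submitters' processing notes name Bowtie2, with no version, and hg19. In the deposited lists each peak's name carries the word MACS, a peak caller. Its version, threshold and control library were not given in the sources used here. A list holds the peaks of 1 library, with no pooling over replicates. Each peak has the authors' own score, on an unstated scale, so scores were ranked only within a list, as percentiles. The number of peaks in a list depends on antibody, depth, control and threshold together.

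Starts in the TEAD1 and TEAD4 lists, which have header lines, were read as 1-based. Starts of the other lists were raised by 1, so starts are uncertain by 1 bp. TSS positions are those of the members' rule in hg19. Strand, gene order and promoter sequence came from RefSeq GRCh38.p14, in which all 7 symbols matched. No hg19 genome or annotation was at hand, so peak sequences, exon or intron positions and further pathway genes were not analysed here.

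Overlap meant at least 1 bp. Tiles of 200 kb ran from the first to the last peak of chromosomes 1 to 22, X and Y. No tests were run, since there is 1 library per antibody. The assignment and overlap steps were tested on simulated data. The members and lists were chosen with earlier results of these data known. Peaks named are every HA-YAP5SA, YAP and TAZ member, and per gene the highest TEAD1, the highest TEAD4 and the TEAD1 peak nearest the TSS. Other peaks named (the next highest at TGFBR2 and SMAD3, the TEAD1 peaks downstream of the TGFB2 start and the other TEAD1 and TEAD4 pairs) were chosen after their values were seen. Alternatives were other windows, score minima, overlap rules and tile positions. The software was SciPy 1.17.1, pandas 2.3.3, NumPy 2.4.6 and matplotlib 3.10.9, under Python 3.11.15.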

Additional observations from a re-analysis of the deposited data

How the results depend on the processing

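Counts followed the window and the score minimum. TEAD1 members numbered 37 within 50 kb, 108 within 200 kb and 33 at or above the median score, and TEAD4 members 13, 43 and 11. The HA-YAP5SA peak of TGFBR2 was below its list's median score, which left 0 HA-YAP5SA members and a share of 0% of TEAD1 members. SMAD3 held the most TEAD1 peaks in each window, but the order of the other genes changed, and so did which intervals met that of SMAD3. Within 50 kb SMAD3 held 13, TGFB2 and SMAD7 7 each, TGFBR2 5, TGFB1 4, TGFBR1 1 and TGFB3 0, and the SMAD3 interval met that of TGFB1. Within 200 kb SMAD3 held 29, TGFB2 23, TGFBR2 20, SMAD7 13, TGFBR1 11, and TGFB1 and TGFB3 6 each. The SMAD3 interval (19.4 to 41.6) just met that of TGFBR1 (5.49 to 19.7), while the SMAD3 count of 29 lay above the TGFBR1 interval. Intervals that meet do not show that counts are alike, and differences between loci were not tested. With as many TEAD1 as TEAD4 peaks, 79.2% of TEAD1 members (19 of 24) carried TEAD4, against 73.4% in the rest of that list. Other overlap rules and windows gave 35.1 to 39.3%, a score minimum in both lists gave 33.3%, and leaving out SMAD3, an alternative chosen after the data were seen, gave 34.2%. Among tiles with at least 1 peak, the share with at least as many as SMAD3 was 0.0485%. No paired analysis was possible because each antibody has 1 library.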

Other observations

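Between 100 and 200 kb from the TSS, outside the rule, TGFB2 had 15 more TEAD1 peaks, 11 of them downstream, and 8 more TEAD4 peaks. The highest (chr1:218652926-218654649, hg19, score 1905, percentile 99.6) lay 135 kb from the TGFB2 start and ranked 155th in the TEAD1 list, above every TEAD1 peak within 100 kb of the 7 genes. TGFBR2 had 10 more TEAD1 peaks there, the highest 115 kb away (chr3:30762198-30763157, score 1553, percentile 99). SMAD3 had 6 more, the highest 182 kb away (chr15:67175356-67176320, score 1607, percentile 99.2), with a TEAD4 peak on it at percentile 98.6. No HA-YAP5SA, YAP or TAZ peak lay in this range at any of the 7 genes. These peaks were looked at after the data were seen, and no gene was assigned to them.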
